A study of Rattus norvegicus with 2 samples.

Results

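The 8 genes described here are chemokines, chosen by symbol from the gene list of the deposited count files: Cxcl14, Cxcl12, Cxcl1, Cxcl10, Ccl2, Ccl5, Ccl7 and Cx3cl1, 8 of 25399 genes in all. Each symbol stood on 1 row of the files, so no member was summed over copies. The cells were mixed primary cultures of glia from the optic nerve of Sprague Dawley rats, 1 library from wild-type (WT) animals and 1 from Nuc1 animals, which carry a spontaneous insertion in the Cryba1 gene. The labels gave an age of postnatal day 7 for both, and the methods of the study gave a younger age for its astrocyte cultures. No treatment was named for either library. Single-cell RNA sequencing captured the 3′ ends of polyadenylated RNA, and each value counts unique molecular identifiers (UMIs), the tags that mark single captured RNA molecules. With 1 library per genotype there was no replicate, so differences between genotypes are given as values without a test. The intervals are exact 95% intervals that cover counting error only.

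Chemokines are small secreted proteins that direct cell movement through G-protein-coupled receptors, and they are grouped by the spacing of their first cysteines into the CXC, CC and CX3C families. Some are made steadily by stromal and glial cells, such as Cxcl12, which holds stem and immune cells in place through Cxcr4, and Cxcl14. Others, such as Cxcl1, Cxcl10, Ccl2, Ccl5 and Ccl7, are switched on by inflammatory signals in many cell types, including astrocytes and fibroblasts, and call in neutrophils, T cells or monocytes.

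Cxcl14 was the astrocyte chemokine of these cultures and was read in nearly every astrocyte-like cell of both genotypes. Cxcl10 was mainly a product of collagen-rich, fibroblast-type cells. Ccl2 and Cxcl1 were lower in the Nuc1 than in the WT library in both of these cell groups, by a wide margin for Cxcl1 in astrocyte-like cells. Cxcl14, Cxcl10 and Cx3cl1 were higher in Nuc1 than in WT collagen-rich cells when each group was summed as a whole. In WT the group levels of Cxcl14 and Cx3cl1 were not told apart from background. In Nuc1 the few oligodendrocyte-lineage cells and cells without markers did not settle the background of Cxcl14. The Nuc1 group level of Cxcl14 lay far above that of a subset of the same cells, so it was not shared by all of them. With subsets of these cells weighted equally, the Cx3cl1 log2 ratio was 0.27 and no longer past 2-fold. Much of the Nuc1 signal of Ccl2, Cxcl10 and above all Ccl5 came from very few cells, so the level of these genes in the library was not the level of a typical cell.

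The WT library held 2107 barcodes and 34517542 UMIs, and the Nuc1 library 1929 barcodes and 35794685 UMIs. After removal of cells with few genes or many mitochondrial UMIs, 1968 WT cells and 1793 Nuc1 cells were kept, with medians of 14053.5 and 16609 UMIs per cell. The libraries shared 2 barcodes. Cryba1, the mutated gene, had 0 UMIs in both, so the genotype labels could not be checked from it. Cells were placed in groups by marker genes. The collagen-rich group (1755 WT and 1277 Nuc1 cells) had Col1a1 at 4217 CPM (UMIs per 1000000 UMIs of the group) against 27.2 CPM in the astrocyte-like group, and the astrocyte-like group (102 and 299 cells) had Gfap, the astrocyte intermediate filament gene, at 9016 CPM against 10.5 CPM. Smaller groups were the motile-cilia cells (14 and 111), oligodendrocyte-lineage cells (48 and 7) and macrophage-like cells (13 and 1). Markers of T and NK cells, a usual source of Ccl5, summed to 4 UMIs over all cells, with Cd3e, Cd3d, Nkg7 and Klrd1 at 0. The median astrocyte marker level in collagen-rich cells was 0 CPM in WT and 45.4 CPM in Nuc1, and the median fibroblast marker level in astrocyte-like cells was 72.9 CPM in WT and 0 CPM in Nuc1.

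**Figure D1:**
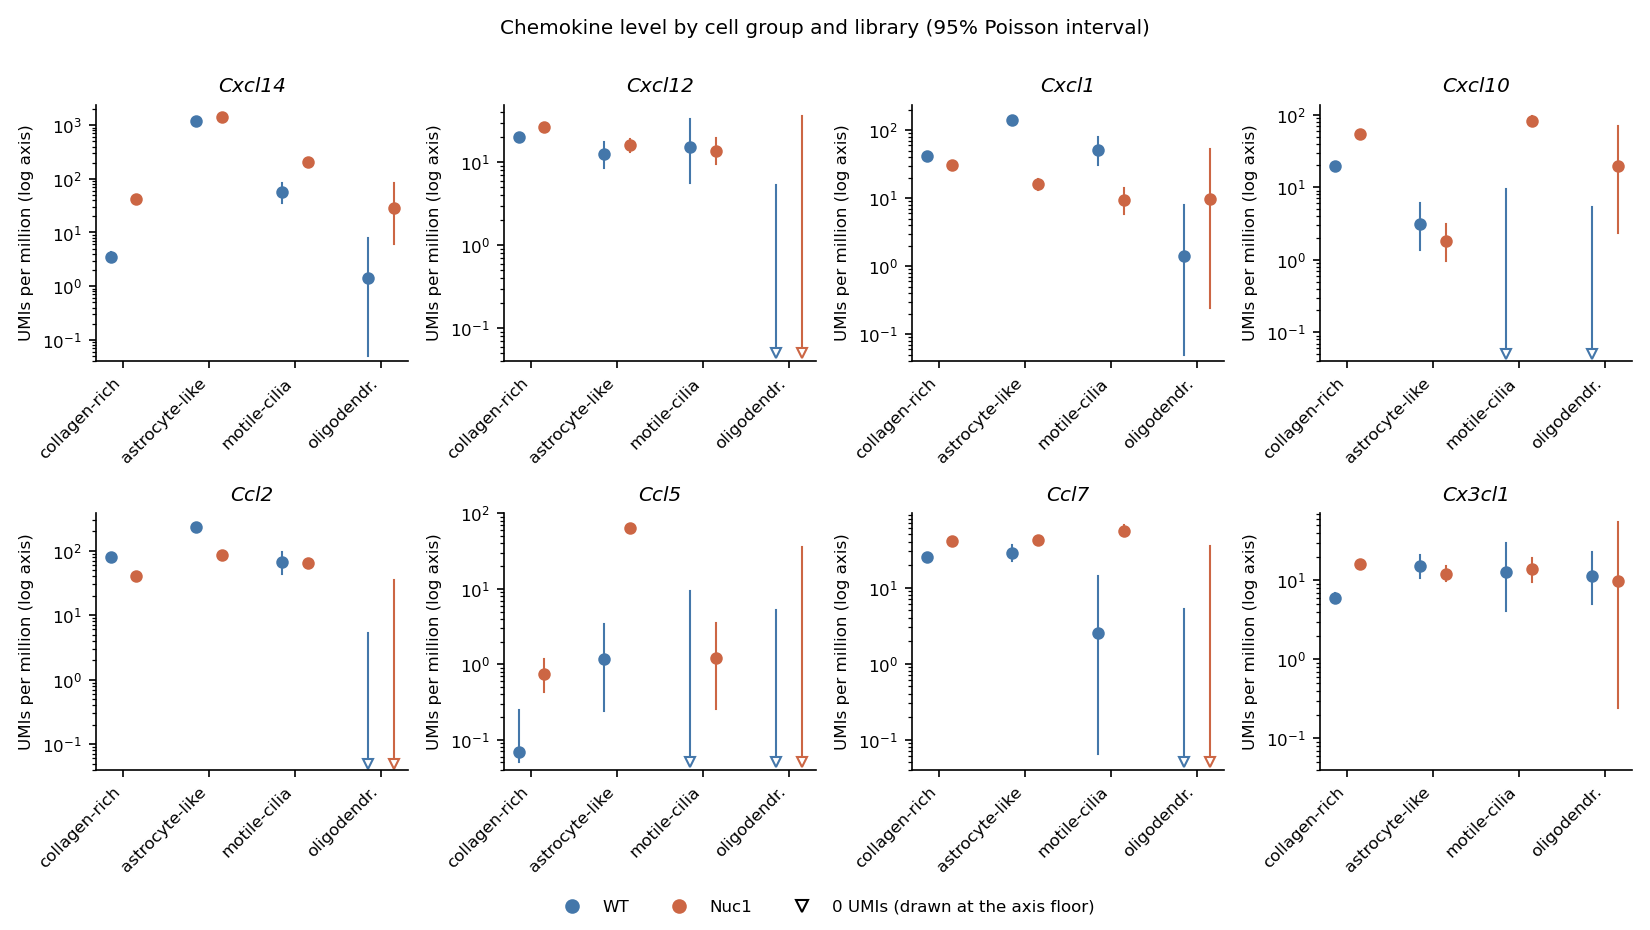
Level of each chemokine in CPM (log axis) in the cell groups of the WT and Nuc1 libraries, as points with exact 95% counting intervals as bars and open triangles for 0 UMIs. Cxcl14 sits at 1194 (WT) and 1417 CPM (Nuc1) in astrocyte-like cells and at 3.52 and 41.8 CPM in collagen-rich cells, and Cxcl10 sits lower in astrocyte-like than in collagen-rich cells of both libraries.

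Between the astrocyte-like and collagen-rich groups, 7 of the 8 members had enough UMIs (at least 20 over both groups in each library) for a ratio. Cxcl14 and Ccl2 were at least 2-fold higher in astrocyte-like cells in both libraries, a pattern that 11.3% of all 11632 genes compared showed. Cxcl10 was at least 2-fold lower in astrocyte-like cells in both libraries, as were 16.3% of all genes. Without the top 5 cells of each group Ccl2 had 145 and 72.5 CPM in WT, just under 2-fold. These groups differ by construction in their marker genes, but no chemokine was among the markers.

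Between genotypes, 7 members could be compared in collagen-rich cells. Cxcl14, Cxcl10 and Cx3cl1 were at least 2-fold higher in Nuc1, 3 of 7, where 6.68% of all 12394 genes were. None of the 7 was at least 2-fold lower, where 4.95% of all genes were, although Ccl2 lay close to that line and crossed it once its top cell was left out. In astrocyte-like cells 1 of 8 members, Ccl5, was at least 2-fold higher (3.36% of all 10221 genes), which came from 1 cell, and Cxcl1 and Ccl2 were at least 2-fold lower (7.14% of all genes). In motile-cilia cells, with 14 cells in WT, 3 of 7 members were higher (7.85% of all genes), namely Cxcl14, Cxcl10 and Ccl7, and Cxcl1 was lower (5.46% of all genes). There the same Nuc1 cell held 124 of 202 Cxcl10 and 75 of 138 Ccl7 UMIs. The top 5 of 111 Nuc1 cells held 99.5% and 92.0%. The median log2 ratio of Nuc1 over WT over all genes was 0.03 in collagen-rich and -0.13 in astrocyte-like cells. The log2 ratio of the trimmed mean of M-values (TMM) factors, Nuc1 over WT, was 0.05 and -0.19, respectively. Scaling by these factors subtracts that value from every ratio scaled to total UMIs.

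**Figure D2:**
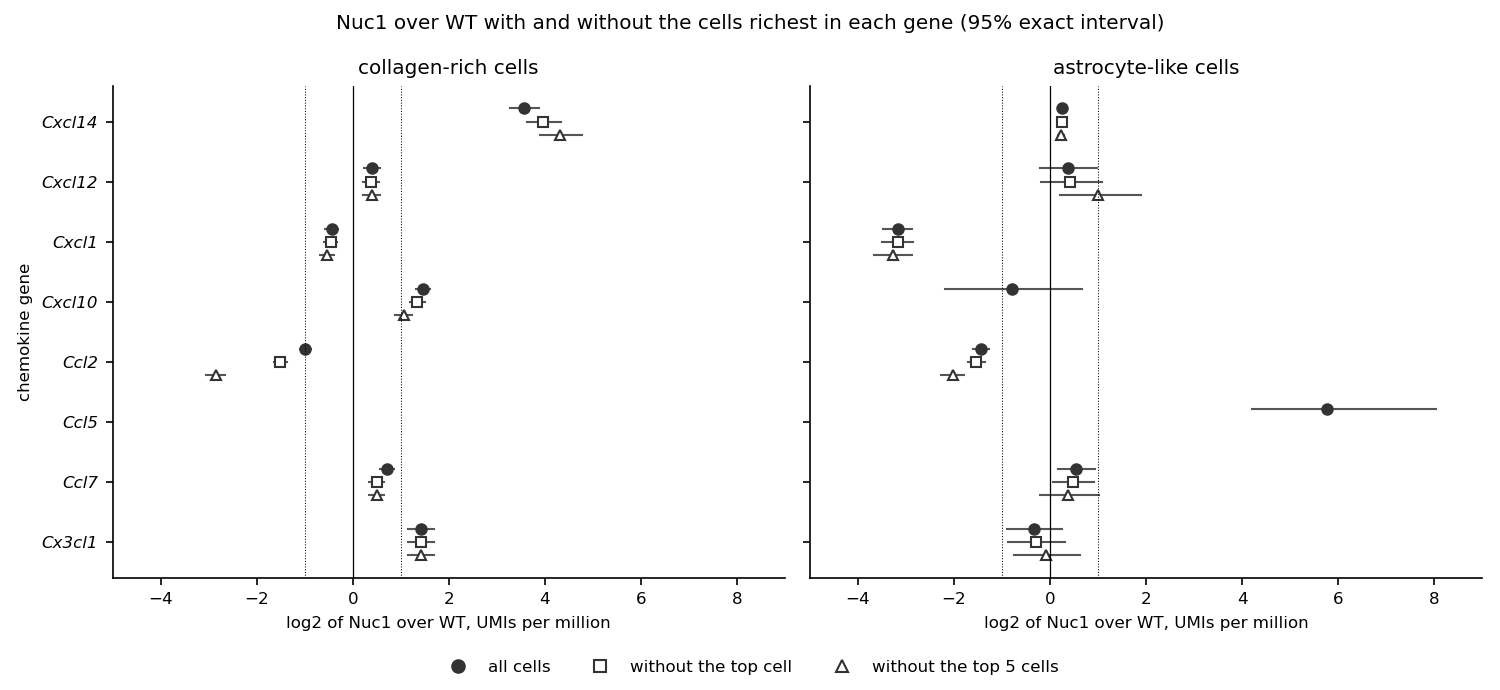
Log2 ratio of Nuc1 over WT for each chemokine in collagen-rich and astrocyte-like cells with exact 95% counting intervals, for all cells (circles), without the top cell (squares) and without the top 5 cells of each library (triangles), with dotted lines at 2-fold. Ratios on too few UMIs, such as Ccl5 without its top cell, are not drawn. In collagen-rich cells the Ccl2 ratio goes from -0.99 to -2.86 without its top 5 cells per library, while the Cx3cl1 ratio stays at 1.42 without its top cell.

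Upstream sequences of 6 of the 8 members were found in the RefSeq table of rat promoters (build GRCr8): Cxcl14, Cxcl12, Cxcl1, Cxcl10, Ccl7 and Cx3cl1. Ccl2 and Ccl5 were not among them. The 250 bases before the transcription start are printed for Cxcl1, Cxcl10 and Ccl7, 3 inflammatory members, and for Cxcl14, the astrocyte member, so that the letters of these promoters can be compared. They are from chr14:17479322-17479571 (minus strand, Cxcl1), chr14:15988816-15989065 (plus strand, Cxcl10), chr10:67513845-67514094 (plus strand, Ccl7) and chr17:8322900-8323149 (plus strand, Cxcl14). Capitals mark matches to the motifs of NF-kB and AP-1, factors of the inflammatory and immediate-early response, and of the interferon-stimulated response element (ISRE). Both strands were read.
Cxcl1: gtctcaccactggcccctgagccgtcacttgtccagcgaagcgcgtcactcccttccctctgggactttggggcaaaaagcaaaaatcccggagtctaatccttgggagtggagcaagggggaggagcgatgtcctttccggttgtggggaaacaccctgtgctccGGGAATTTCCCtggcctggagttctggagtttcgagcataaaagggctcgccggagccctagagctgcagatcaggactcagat
Cxcl10: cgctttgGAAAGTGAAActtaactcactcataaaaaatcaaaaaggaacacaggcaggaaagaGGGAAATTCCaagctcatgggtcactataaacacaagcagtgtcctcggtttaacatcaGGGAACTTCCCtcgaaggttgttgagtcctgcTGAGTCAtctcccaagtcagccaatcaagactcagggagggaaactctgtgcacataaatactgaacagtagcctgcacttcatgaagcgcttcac
Ccl7: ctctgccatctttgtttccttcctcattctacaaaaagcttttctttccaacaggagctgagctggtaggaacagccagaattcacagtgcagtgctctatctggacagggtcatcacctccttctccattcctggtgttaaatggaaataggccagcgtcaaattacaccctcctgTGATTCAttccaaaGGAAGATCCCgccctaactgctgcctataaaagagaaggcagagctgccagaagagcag
Cxcl14: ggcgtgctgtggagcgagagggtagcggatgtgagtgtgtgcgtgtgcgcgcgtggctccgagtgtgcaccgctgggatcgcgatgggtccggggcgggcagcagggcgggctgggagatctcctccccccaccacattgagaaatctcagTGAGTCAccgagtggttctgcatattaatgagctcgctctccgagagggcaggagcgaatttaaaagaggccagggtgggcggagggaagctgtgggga

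Cxcl1 held a pair of overlapping NF-kB matches on opposite strands between 84 and 74 bases before the start. Cxcl10 held 5 matches: NF-kB at 187 to 178 bases, an overlapping NF-kB pair between 128 and 118 bases, the ISRE (GAAANNGAAA) at 243 to 234 bases and AP-1 (TGANTCA) at 96 to 90 bases. Ccl7 held an NF-kB match on the minus strand at 59 to 50 bases and AP-1 at 73 to 67 bases, and Cxcl14 held AP-1 alone, at 99 to 93 bases. In windows of this length NF-kB matched 6.33%, the ISRE 3.41% and AP-1 6.34% of 33469 rat promoters. Cxcl12 and Cx3cl1 had no match to these motifs or to the GAS motif of STAT factors (TTCNNNGAA, 7.67% of promoters). A match gives letters only and was not tested as a binding site.

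Cxcl14, a CXC chemokine that attracts monocytes and dendritic cells and modulates signalling by Cxcl12, was counted 3058 times in WT (102 astrocyte-like cells) and 10271 times in Nuc1 (299 cells). That was 1194 CPM (1152 to 1237) in WT and 1417 CPM (1389 to 1444) in Nuc1, a log2 ratio of 0.25 (0.19 to 0.31). With cells above 10% mitochondrial UMIs left out, only 19 WT and 126 Nuc1 astrocyte-like cells remained and the log2 ratio was 1.15. In this group 93.1% of WT and 95.3% of Nuc1 cells had a UMI, at median depths of 25003 and 22782 UMIs. After each cell was thinned to 5000 UMIs, the shares were 89.0% and 83.7%, so the order of the shares was the opposite of that of the CPM and no genotype order was read from them. The top cell held 140 UMIs in WT and 483 in Nuc1, a small part of either sum. The astrocyte-like group held 79.3% of all Cxcl14 UMIs in WT and 75.7% in Nuc1, and the cells set apart as mixed most of the rest, 17.3% and 13.4%.

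In collagen-rich cells Cxcl14 had 103 UMIs in WT, 3.52 CPM (2.87 to 4.26), and 953 UMIs in Nuc1, 41.8 CPM (39.2 to 44.5), a log2 ratio of 3.57 (3.28 to 3.88). The astrocyte-like level was 340 times the collagen-rich level in WT and 33.9 times in Nuc1. The share of collagen-rich cells with a UMI was 2.56% in WT, close to the 2.08% (1 of 48 cells) of WT oligodendrocyte-lineage cells, so the WT value was not told apart from the background of free RNA in the suspension. In Nuc1 it was 15.3%, at median depths of 13721 (WT) and 15169 (Nuc1) UMIs, and 8.72% against 0.864% after thinning. The Nuc1 background was poorly measured, with 1 of 7 oligodendrocyte-lineage cells (14.3%, 29.0 CPM, 5.99 to 84.9) and 16.1% of the 31 cells without markers holding a Cxcl14 UMI, so the Nuc1 group level was not told apart from it either on these cells. Leaving out the top 5 cells per library gave a log2 ratio of 4.32.

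The Nuc1 signal was not spread evenly over collagen-rich cells. Collagen-rich cells were divided into subsets by pairs of marker genes, with dividing cells and cells low in all pairs as subsets of their own, and in Nuc1 the Inmt/Cyp26b1 subset (306 cells) had 114 CPM of Cxcl14 while the Actg2/Penk subset (164 cells) of the same library had 3.49 CPM. The shares of cells with a UMI were 33.7% and 6.10%, with median depths of 14830 and 18785 UMIs, and 21.6% and 1.86% after thinning. The median level of the astrocyte markers was alike in both subsets, 51.1 and 45.8 CPM. The Nuc1 group level of 41.8 CPM (39.2 to 44.5) lay above the interval of the Actg2/Penk subset (1.81 to 6.10 CPM). That group level was thus not shared by all collagen-rich cells of the library. Whether free RNA reached the subsets alike was not tested. Nuc1 collagen-rich cells with 0 UMIs of the astrocyte markers (527 cells) had 47.7 CPM of Cxcl14 (43.0 to 52.7), and those above 0 had 38.5 CPM. The 31 Nuc1 collagen-rich cells with the most astrocyte marker UMIs per UMI had 210 CPM and held 103 of the 953 UMIs. In WT the same cuts gave 3.36 CPM (1260 cells) and 3.84 CPM. The Inmt/Cyp26b1 subset was 1.42% of WT and 24.0% of Nuc1 collagen-rich cells (25 and 306 cells), and in its 25 WT cells Cxcl14 had 19.3 CPM. The subset low in all pairs was next, with 7.74 CPM in WT and 85.7 CPM in Nuc1.

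**Figure D3:**
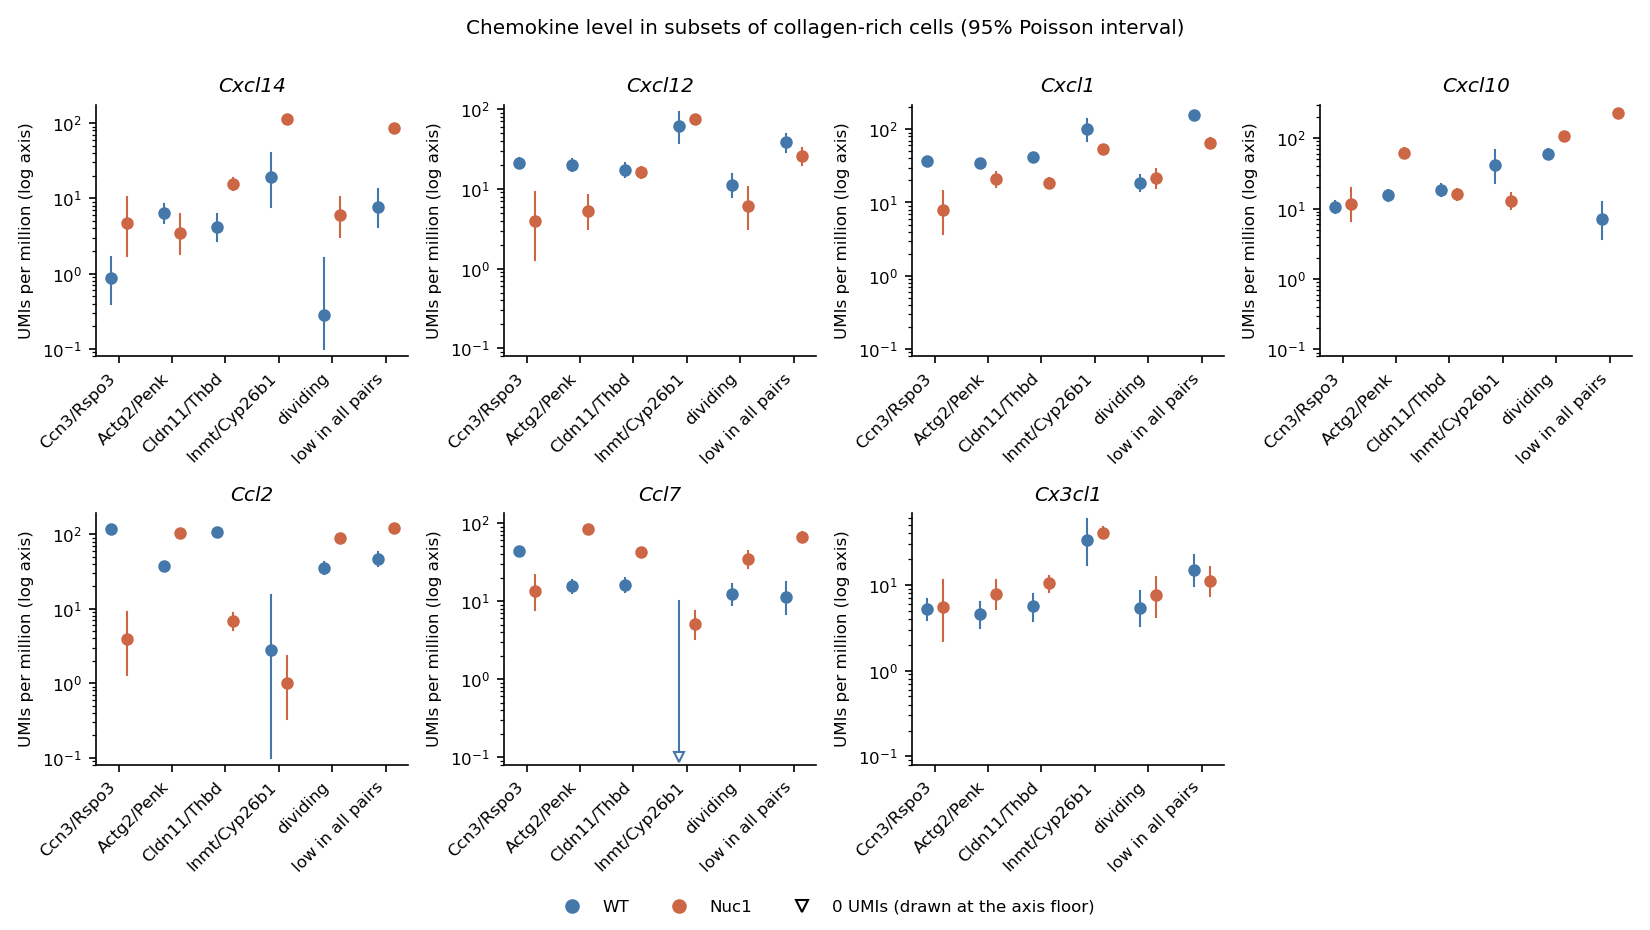
Level of each chemokine in CPM (log axis) in the subsets of collagen-rich cells, WT beside Nuc1, with exact 95% counting intervals and an open triangle for 0 UMIs. Ccl5, with 19 UMIs in all these cells, is left out. Cxcl14, Cxcl12 and Cx3cl1 are highest in the Nuc1 Inmt/Cyp26b1 subset (114, 75.5 and 40.4 CPM), and Ccl2 goes from 118 CPM in WT to 3.93 CPM in Nuc1 in the Ccn3/Rspo3 subset.

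In motile-cilia cells, the ependymal type, Cxcl14 had 22 UMIs in 14 WT cells (56.0 CPM) and 498 UMIs in 111 Nuc1 cells (203 CPM). These levels lay between those of the collagen-rich and astrocyte-like groups in both libraries, and the intervals of the 3 groups did not overlap within either library. Motile-cilia cells carried astrocyte markers too, at medians of 6116 CPM in WT and 8975 CPM in Nuc1. These medians also lay between those of the collagen-rich and astrocyte-like groups, and how they bear on the Cxcl14 level was not tested.

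Cxcl12, the ligand of Cxcr4 and of the scavenger receptor Ackr3, had 597 UMIs in WT and 615 UMIs in Nuc1 collagen-rich cells. The levels were 20.4 CPM (18.8 to 22.1) and 27.0 CPM (24.9 to 29.2), and the log2 ratio was 0.40 (0.24 to 0.57). It was the most evenly spread member in collagen-rich cells beside Cx3cl1. A UMI was read in 20.7% and 24.2% of cells, and the top 5 cells held 7.87% and 8.29% of its UMIs. In astrocyte-like cells it had 32 UMIs in WT and 117 UMIs in Nuc1, 12.5 CPM (8.55 to 17.6) and 16.1 CPM (13.3 to 19.3), and the interval of the log2 ratio included 0 (-0.21 to 0.98). This ratio was just past 2-fold without the top 5 cells, -0.80 at no more than 10% mitochondrial UMIs and -0.04 after thinning, so no direction was read from it. WT oligodendrocyte-lineage cells had none in 48 cells, with an upper limit of 5.30 CPM. Collagen-rich cells therefore exceeded astrocyte-like cells by 1.63 times in WT and 1.67 times in Nuc1.

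Within collagen-rich cells Cxcl12 was highest in the Inmt/Cyp26b1 subset in both libraries, at 60.6 CPM in WT and 75.5 CPM in Nuc1, and 53.3% of the Nuc1 cells of this subset had a UMI. In the Ccn3/Rspo3 subset it had 21.3 CPM in WT and 3.93 CPM in Nuc1, and in the Actg2/Penk subset 19.99 and 5.24 CPM. In the Cldn11/Thbd subset the levels were close, 17.2 and 16.1 CPM. The subset shares differed between the libraries: Ccn3/Rspo3 cells were 40.6% of WT and 6.50% of Nuc1 collagen-rich cells, and with each subset weighted equally the log2 ratio of Cxcl12 was -0.35. The sum over collagen-rich cells and the mean over its subsets thus gave opposite directions. Its receptors also differed. Ackr3 had 54.4 CPM in WT and 11.4 CPM in Nuc1 collagen-rich cells, a log2 ratio of -2.25, and Cxcr4 had 61.7 CPM in WT and 20.8 CPM in Nuc1 astrocyte-like cells, a log2 ratio of -1.57.

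Cx3cl1, or fractalkine, is a membrane-bound chemokine released by the proteases Adam10 and Adam17, and its receptor Cx3cr1 marks microglia. It had 176 UMIs in WT and 367 UMIs in Nuc1 collagen-rich cells, 6.01 CPM (5.15 to 6.97) and 16.1 CPM (14.5 to 17.8), a log2 ratio of 1.42 (1.16 to 1.69). No cell of either library held more than 8 UMIs, and the ratio was 1.42 again without the top cell. Shares of cells with a UMI were 7.58% and 18.6%, and 2.94% and 9.04% after thinning. WT oligodendrocyte-lineage cells had 8 UMIs in 48 cells, 10.4% of cells with a UMI and 2.17% after thinning. The WT collagen-rich share thus lay below theirs at full depth and slightly above it after thinning. At 11.5 CPM (4.96 to 22.6) the oligodendrocyte-lineage cells were not below the 7.73 CPM of all WT cells kept. They therefore gave no usable background for Cx3cl1, and expression over the whole collagen-rich group was not settled by them. In astrocyte-like cells it had 39 UMIs in WT and 88 UMIs in Nuc1, 15.2 CPM (10.8 to 20.8) and 12.1 CPM (9.73 to 15.0), and the ratio interval included 0 (-0.89 to 0.26).

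As with Cxcl14 and Cxcl12, Cx3cl1 was highest in the Inmt/Cyp26b1 subset, with 33.0 CPM (17.1 to 57.7) in the 25 WT cells and 40.4 CPM (35.0 to 46.3) in the 306 Nuc1 cells, and 36.0% and 40.5% of cells with a UMI. With all 6 subsets weighted equally the log2 ratio over collagen-rich cells was 0.27 and no longer past 2-fold. Within the Inmt/Cyp26b1 subset the WT and Nuc1 levels of Cx3cl1 were thus much closer than in the whole group. Adam10 had 16.3 and 19.5 CPM and Adam17 25.3 and 23.0 CPM in WT and Nuc1 collagen-rich cells, and Cx3cr1 had 0 UMIs in every cell kept.

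Ccl2 and Ccl7 are CC chemokines that bring in monocytes through Ccr2. Ccl2 had 2332 UMIs in WT and 916 UMIs in Nuc1 collagen-rich cells, 79.6 CPM (76.4 to 82.9) and 40.2 CPM (37.6 to 42.8), a log2 ratio of -0.99 (-1.10 to -0.88). Both the level and the share were lower in Nuc1: 22.5% of WT and 7.67% of Nuc1 cells had a UMI, and 14.1% and 3.17% after thinning. In WT oligodendrocyte-lineage cells Ccl2 had 0 UMIs in 48 cells. The Nuc1 sum rested on few cells. Its top cell held 296 UMIs, 32.3% of the sum, its top 5 cells held 75.3%, and 2 cells made up 50% of it, whereas 61 WT cells were needed for 50% of the WT sum. Without the top 5 cells the Nuc1 level was 10.0 CPM (8.74 to 11.4) against 72.5 CPM (69.4 to 75.6) in WT, a log2 ratio of -2.86.

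The WT Ccl2 of collagen-rich cells came mostly from subsets in which Nuc1 had little. In the Ccn3/Rspo3 subset it had 118 CPM in WT and 3.93 CPM in Nuc1, a log2 ratio of -4.91, and in the Cldn11/Thbd subset 109 and 6.81 CPM, a log2 ratio of -4.00. The Cldn11/Thbd subset held many cells in both libraries (341 and 507), and 26.1% of its WT and 6.71% of its Nuc1 cells had a Ccl2 UMI. In the Actg2/Penk subset the order was the opposite, 37.1 CPM in WT and 104 CPM in Nuc1, but 1 Nuc1 cell held 296 of the 358 UMIs there and without the top cell of each library the log2 ratio was -0.89. Dividing cells (35.3 and 88.2 CPM) and the subset low in all pairs (47.0 and 120 CPM) were also higher in Nuc1, and there the top 5 Nuc1 cells held 96.0% and 92.4% of the UMIs. Ccl2 was low in the Inmt/Cyp26b1 subset of both libraries, at 2.75 and 1.004 CPM, where Cxcl14, Cxcl12 and Cx3cl1 were highest.

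In astrocyte-like cells Ccl2 had 589 UMIs in WT and 617 UMIs in Nuc1, from 102 and 299 cells. The levels were 230 CPM (212 to 249) and 85.1 CPM (78.5 to 92.1), a log2 ratio of -1.43 (-1.60 to -1.27). A UMI was read in 48.0% of WT and 25.1% of Nuc1 cells, and in 35.0% and 11.9% after thinning. The lower Nuc1 level was thus seen in the share of cells too, and the log2 ratio without the top 5 cells per library was -2.02. The Ccl2 level in astrocyte-like cells was 2.89 times that of collagen-rich cells in WT and 2.12 times in Nuc1. In the 13 WT macrophage-like cells it had 18 UMIs.

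Ccl7 had 729 UMIs in WT and 935 UMIs in Nuc1 collagen-rich cells, 24.9 CPM (23.1 to 26.8) and 41.0 CPM (38.4 to 43.7), a log2 ratio of 0.72 (0.58 to 0.86). Its direction was thus the opposite of that of Ccl2 in the same cells. Shares of cells with a UMI were 11.2% and 16.4%, and 6.04% and 9.20% after thinning. The log2 ratio was 0.50 without the top cell and the Nuc1 level without the top 5 cells was 29.0 CPM (26.8 to 31.3), still above the WT level of 20.5 CPM (18.9 to 22.2). In astrocyte-like cells it had 73 and 302 UMIs, 28.5 CPM (22.3 to 35.8) and 41.7 CPM (37.1 to 46.6), a log2 ratio of 0.55 (0.17 to 0.94), and 2.50 in the few cells at no more than 10% mitochondrial UMIs. Astrocyte-like and collagen-rich levels of Ccl7 differed by less than their counting error in both libraries, with ratios of 1.15 in WT and 1.02 in Nuc1.

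The subsets showed where Ccl2 and Ccl7 parted. In Cldn11/Thbd cells Ccl7 had 16.0 CPM in WT and 42.5 CPM in Nuc1, a log2 ratio of 1.41, with UMIs in 9.68% and 22.1% of cells, while Ccl2 was lower in Nuc1 in the same cells. In Ccn3/Rspo3 cells both were lower in Nuc1, Ccl7 at 44.3 CPM in WT and 13.4 CPM in Nuc1 (log2 ratio -1.73). In Actg2/Penk cells Ccl7 had 15.4 and 84.4 CPM, a log2 ratio of 2.45, but 1 Nuc1 cell held 173 of 290 UMIs and the log2 ratio was 1.38 without the top cell of each library. In Inmt/Cyp26b1 cells it was scarce, as Ccl2 was, with 0 UMIs in 25 WT cells and 5.02 CPM in Nuc1. The 13 WT macrophage-like cells had 16 UMIs of Ccl7.

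Cells that were high for one of the pair, with at least 10 UMIs, were often without the other in WT. There were 98 such Ccl2 cells in WT, of which 49 had no Ccl7 UMI, and 29 in Nuc1, of which 1 had none. In WT 50% of Ccl2-high cells had a Ccl7 UMI against 11.5% of all cells, and in Nuc1 96.6% against 16.1%. The Ccl2-high cells had a median of 16068 UMIs in WT and 37675 UMIs in Nuc1, and how far depth bears on these shares was not tested. High cells of Ccl7 numbered 22 in WT and 28 in Nuc1, of which 6 and 9 had no Ccl2 UMI. Cells high for both numbered 10 in WT and 15 in Nuc1. The top Nuc1 cell of both genes was the same Actg2/Penk cell, with 296 Ccl2 and 173 Ccl7 UMIs among 47600 UMIs.

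**Figure D4:**
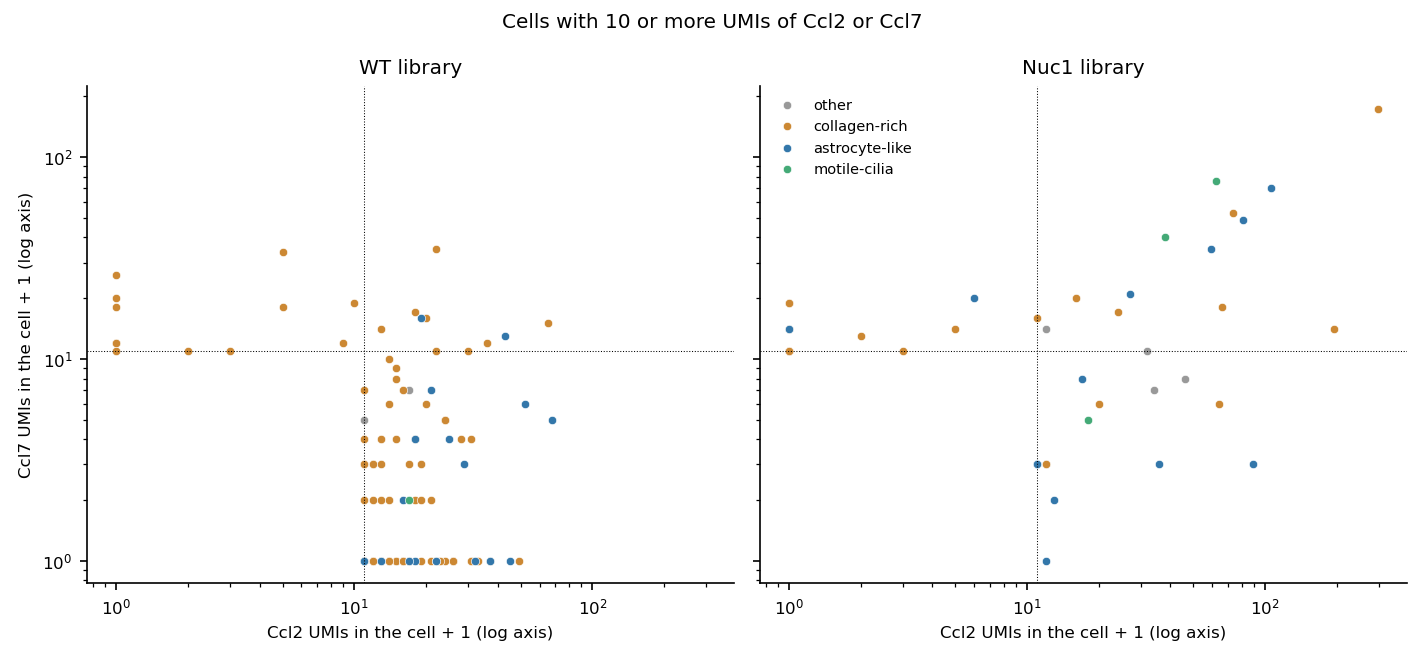
UMIs of Ccl2 (horizontal) and Ccl7 (vertical), each plus 1 on log axes, in the 110 WT and 42 Nuc1 cells with at least 10 UMIs of either gene, 1 point per cell coloured by cell group, with dotted lines at 10 UMIs. Many WT points spread along the Ccl2 axis with little or no Ccl7, and several of the Nuc1 cells with the most Ccl2 also carry Ccl7, up to 296 and 173 UMIs in 1 cell.

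Cxcl1, which brings in neutrophils through Cxcr2, had 1244 UMIs in WT and 715 UMIs in Nuc1 collagen-rich cells, 42.5 CPM (40.1 to 44.9) and 31.3 CPM (29.1 to 33.7), a log2 ratio of -0.44 (-0.57 to -0.30). In astrocyte-like cells it had 370 UMIs in 102 WT cells and 116 UMIs in 299 Nuc1 cells. The WT level of 144 CPM (130 to 160) was 9.03 times the Nuc1 level of 16.0 CPM (13.2 to 19.2), a log2 ratio of -3.17 (-3.49 to -2.87). This was the widest genotype gap of the members in astrocyte-like cells that did not rest on 1 cell. A UMI was read in 47.1% of WT and 12.7% of Nuc1 cells, and in 33.0% and 4.42% after thinning, and the levels without the top 5 cells were 93.1 CPM (81.3 to 106) and 9.68 CPM (7.53 to 12.2). WT oligodendrocyte-lineage cells had 1 UMI of Cxcl1.

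The order of the cell groups for Cxcl1 was opposite in the libraries. Astrocyte-like cells had 3.40 times the collagen-rich level in WT and 0.510 times in Nuc1. In collagen-rich cells it was highest in the subset low in all marker pairs, 158 CPM in WT and 64.7 CPM in Nuc1, followed by the Inmt/Cyp26b1 subset at 99.1 and 53.2 CPM. It was lower in Nuc1 in the Ccn3/Rspo3 subset (36.3 and 7.87 CPM) and the Cldn11/Thbd subset (41.6 and 18.3 CPM), and with the subsets weighted equally the log2 ratio was -1.06. In motile-cilia cells it had 20 UMIs in 14 WT cells and 23 UMIs in 111 Nuc1 cells, 50.9 CPM (31.1 to 78.6) and 9.37 CPM (5.94 to 14.1).

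Cxcl10, an interferon-induced chemokine that brings in activated T cells through Cxcr3, had 573 UMIs in WT and 1230 UMIs in Nuc1 collagen-rich cells, 19.6 CPM (18.0 to 21.2) and 53.9 CPM (51.0 to 57.0), a log2 ratio of 1.46 (1.32 to 1.61). Astrocyte-like cells had 8 UMIs in WT and 13 UMIs in Nuc1, 3.12 CPM (1.35 to 6.16) and 1.79 CPM (0.955 to 3.07), and these could not be told apart. Adding the cells with mixed markers turned this log2 ratio from -0.80 to 2.28, and 1 cell held 102 of the 131 UMIs of the Nuc1 mixed cells. Collagen-rich cells exceeded them by 6.26 times in WT and 30.1 times in Nuc1. The collagen-rich sum rested on few cells in both libraries: the top 5 cells held 24.8% of the WT and 43.0% of the Nuc1 sum, and 19 and 7 cells made up 50%. The levels without the top 5 cells were 14.8 CPM (13.5 to 16.3) and 31.0 CPM (28.7 to 33.4), a log2 ratio of 1.06. Shares of cells with a UMI were much closer than the levels, 8.66% and 12.5%, and 4.55% and 5.79% after thinning.

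Dividing collagen-rich cells, marked by genes of mitosis such as Mki67 and Top2a, carried Cxcl10 more often than collagen-rich cells as a whole. In 134 WT and 62 Nuc1 dividing cells it had 60.4 and 107 CPM, and 27.6% and 58.1% of cells had a UMI. These cells were deep, with medians of 23900 and 30727 UMIs, but after thinning to 5000 UMIs the shares were still 15.7% and 22.6%, against 4.55% and 5.79% of all collagen-rich cells. The highest Nuc1 level was in the subset low in all pairs, 225 CPM against 7.14 CPM in WT, where 1 cell held 205 UMIs and the top 5 cells 83.1% of the sum. In Inmt/Cyp26b1 cells the order was the opposite, 41.3 CPM in 25 WT cells, all of it from 2 cells, and 12.9 CPM in Nuc1, and in Cldn11/Thbd cells the levels were close, 18.5 and 16.0 CPM. In motile-cilia cells Cxcl10 had 0 UMIs in 14 WT cells and 202 UMIs in Nuc1, of which 1 cell held 124.

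Cells high for Cxcl10 also carried Cxcl11, which acts on the same receptor. Among collagen-rich cells with at least 10 Cxcl10 UMIs, 35.7% in WT and 65.0% in Nuc1 had a Cxcl11 UMI, against 2.01% and 12.9% of the other collagen-rich cells. The high cells were deeper, with median UMIs of 32012 and 34027 against 13682 and 15046, and how far depth bears on this share was not tested.

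Ccl5, which attracts T cells and macrophages, was close to absent outside 1 cell. It had 5 UMIs in 3 WT cells and 483 UMIs in 18 Nuc1 cells, of which 457 lay in a single astrocyte-like cell and the second highest cell had 4. Without the top cell the Nuc1 astrocyte-like group had 6 UMIs, and the log2 ratio went from 5.77 (4.21 to 8.05) to 1.07 (-1.97 to 6.60). Collagen-rich cells had 2 UMIs in WT and 17 UMIs in Nuc1, too few for the comparison across genes. The Ccl5 values were therefore those of 1 cell and not of a cell group.

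That cell had 30793 UMIs, 4.08% of them mitochondrial, with 460 UMIs of Gfap, 262 of S100b and 429 of Cxcl14. It had 0 UMIs of the T and NK cell markers and 1 UMI of the macrophage markers, in Cd68. Genes of the interferon response list had 79 UMIs in it, 2566 CPM against 1155 CPM in the other Nuc1 astrocyte-like cells, a level above that of 96.3% of those cells taken singly. Mx1 had 520 CPM against 12.2 CPM, Irf7 325 against 3.88 CPM and Ifit2 227 against 2.49 CPM, while Isg15 had 1 UMI. Ifi27l2b had 372 UMIs, 12081 CPM against 60.3 CPM in the other cells, and Lgals3 had 406 UMIs, both chosen after their values were seen.

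**Figure D5:**
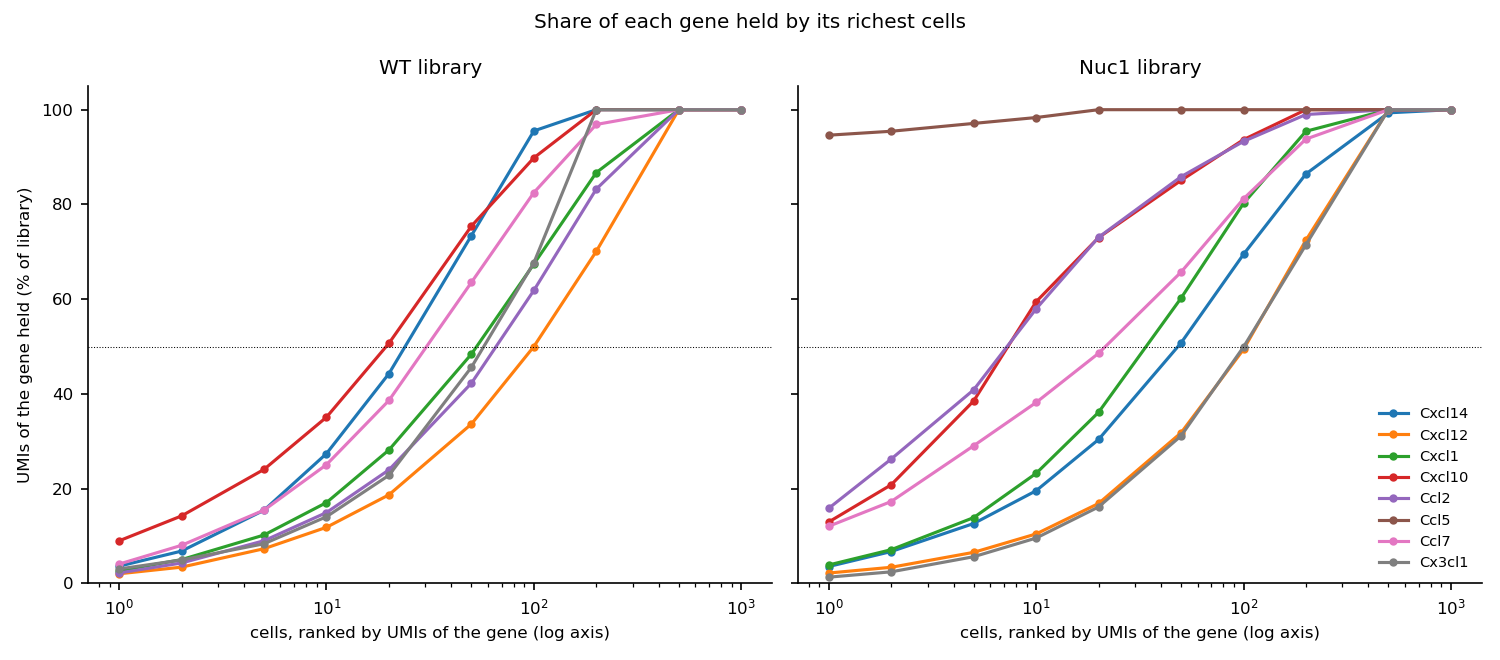
Cumulative share of each chemokine's UMIs (vertical axis, percent of the library) against the number of cells ranked by their UMIs of that gene (log axis), WT beside Nuc1. Ccl5 is drawn for Nuc1 alone. The Nuc1 curve of Ccl5 starts at 94.6% with 1 cell and that of Ccl2 reaches 50% within 8 cells, against 67 cells for Ccl2 in WT.

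For 4 inflammatory members, fewer cells made up 50% of the UMIs in Nuc1 than in WT. Over all cells kept, 50% of the UMIs of Ccl2 lay in 67 WT and 8 Nuc1 cells, of Cxcl10 in 20 and 8 cells, of Ccl7 in 31 and 22 cells, and of Cxcl1 in 54 and 35 cells. Ccl2 had a UMI in 472 WT and 219 Nuc1 cells and Cxcl1 in 387 and 241. Cxcl10 was read in 160 and 188 cells and Ccl7 in 226 and 289. The cells with Cxcl1 were thus fewer in Nuc1 in like measure, and no added concentration was read for it. For Cxcl14, Cxcl12 and Cx3cl1 it took as many or more cells in Nuc1 (25 and 49, 100 and 103, 56 and 101). These genes also had a UMI in more Nuc1 than WT cells (168 and 590, 392 and 427, 185 and 352). Cells with at least 10 UMIs of Cxcl1, Cxcl10, Ccl2 or Ccl7 were 161 in WT, 8.18% of cells, and 79 in Nuc1, 4.41%. Those high for at least 2 of these genes numbered 18 in WT and 20 in Nuc1, and for at least 3 genes 0 and 3. The 20 Nuc1 cells held 64.8% of Ccl2, 43.9% of Ccl7 and 35.2% of Cxcl10 UMIs of their library, and the 18 WT cells 12.6%, 22.1% and 1.36%. Their median depth was 38820 UMIs in Nuc1 and 18819 UMIs in WT, against 16609 and 14053.5 UMIs for all cells, and no doublet caller was run on them. Single Nuc1 cells carried several of these genes: one of 50266 UMIs, in the subset low in all pairs, held 205 Cxcl10, 35 Cxcl1 and 12 Cxcl11 UMIs, and a motile-cilia cell of 39965 UMIs held 124 Cxcl10, 61 Ccl2 and 75 Ccl7 UMIs.

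The other chemokine ligands were followed as a list of 28 genes, of which 6 had 0 UMIs in all cells and 8 had at least 100. In collagen-rich cells 10 of them could be compared. Of these, 7 were at least 2-fold higher in Nuc1 (6.68% of all genes) and 0 lower (4.95% of all genes). The median log2 ratio of the 10 was 2.74 against 0.03 over all genes. It was 2.79 with the 1 ligand at 0 UMIs in WT, Cxcl6, named after its values were seen, set at the limit of 3 UMIs. Ccl11, which attracts eosinophils, had 29 UMIs in WT and 452 UMIs in Nuc1 (log2 ratio 4.32), and Ccl19, a ligand of Ccr7, had 22 and 286 UMIs (4.06). Cxcl11 had 80 and 490 UMIs (2.98), and Cxcl13, which attracts B cells, had 2 and 153 UMIs (6.62, 4.74 to 9.68). The 2 most even ligands were Cxcl16, a membrane-bound ligand of Cxcr6, at 145 and 129 CPM, and Ccl27, with 91 and 64 UMIs. Pf4 and Ccl6 belonged to the macrophage-like cells, where WT had 1107 and 102 UMIs in 13 cells. In astrocyte-like cells 2 of the 28 could be compared, and neither differed by 2-fold (3.36% of all genes were higher and 7.14% lower).

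Of 23 chemokine receptors listed, Ccr2 and Ackr1 were not read, because their symbols did not stand on exactly 1 row of the files. Ccr2, the receptor named above for Ccl2 and Ccl7, was thus not measured here. Of the 21 receptors read, 11 had 0 UMIs. In collagen-rich cells 4 could be compared, of which 2 were at least 2-fold higher (6.68% of all genes) and 1 lower (4.95%) in Nuc1. Cxcr4 was the higher one among those with at least 100 UMIs in all cells, though at 0.307 CPM in WT and 2.63 CPM in Nuc1, Ackr3 was the lower one, and Ccrl2 had 2.90 and 2.32 CPM. The other higher one was Ackr4, a scavenger of Ccl19 named here after its values were seen, with 10 and 24 UMIs. In astrocyte-like cells Cxcr4 was at least 2-fold lower (7.14% of all genes). Ackr3 was at least 2-fold higher (3.36% of all genes) but with 4 and 26 UMIs.

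Genes of the NF-kB and early inflammatory list, the response that switches on Cxcl1 and Ccl2 in many cells, were on balance lower in Nuc1. In collagen-rich cells 15 of 20 could be compared, with a median log2 ratio of -0.62. Of these, 4 were at least 2-fold lower (4.95% of all genes) and 1, Vcam1 (18.8 and 165 CPM), was higher (6.68% of all genes). Il6 had 112 UMIs in WT and 1 in Nuc1, Ptgs2 had 81.2 and 37.7 CPM, Socs3 7.82 and 3.68 CPM, and Zfp36, which destabilises inflammatory mRNAs, 584 and 184 CPM. In astrocyte-like cells 12 could be compared, with a median of -0.48 against -0.13 over all genes. Of these, 5 were at least 2-fold lower (7.14% of all genes) and 0 higher (3.36% of all genes). Those 5 were Icam1 (33.6 and 14.9 CPM), Cebpb (162 and 65.5), Socs3 (11.7 and 1.93), Zfp36 (472 and 155) and Fos (1015 and 416).

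Genes of the interferon response list differed less. In collagen-rich cells 13 of 16 could be compared, with a median of -0.05. Of these, 1 was at least 2-fold higher in Nuc1 (6.68% of all genes), near that share, and 0 lower (4.95% of all genes). The higher one was Ifit2, at 5.67 CPM in WT and 14.7 CPM in Nuc1, Isg15 had 18.3 and 29.5 CPM, and Irf1 45.3 and 29.8 CPM. In astrocyte-like cells 1 of 13, Rsad2, was higher (3.36% of all genes) and 2, Irf7 and Irf1, were lower (7.14%), with a median of -0.14. In the collagen-rich cells with at least 10 Cxcl10 UMIs the list summed to 522 CPM in WT and 757 CPM in Nuc1, against 819 and 983 CPM in the other collagen-rich cells. How these values bear on Cxcl10 was not tested.

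Genes whose levels were most like those of each member were sought over the 21 sums per cell group or subset and library with at least 10 cells. These sums share libraries and depth, so Pearson's r of log2(CPM + 10) is given as a description. Cxcl14 was most like Cyp7b1 (0.95), Ndp (0.93) and Fam84a (0.92), and Cxcl12 like Robo2 (0.93), Acss3 (0.93) and Mmp23 (0.87). Cx3cl1 was most like Sod3 (0.85), Sapcd1 (0.84) and Sfrp1 (0.82). The inflammatory members had weaker partners: Cxcl1 with Cebpb (0.83), Ctsc (0.70) and Smim3 (0.69), Cxcl10 with Sertad2 (0.76), Dapk2 (0.75) and Pln (0.71), Ccl2 with Ccng1 (0.71), S100a4 (0.70) and Tuba4a (0.69), and Ccl7 with Tuba4a (0.74), Khk (0.72) and Efhd2 (0.69). For Ccl5 the values were Aplnr (0.68), Mfap3l (0.68) and Phox2a (0.66), and they follow the sum that holds its 1 cell.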

How the data were processed

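The authors deposited 1 matrix of raw UMI counts per gene and cell for each library, made with the 10x Genomics 3′ kit v3.1 at a target of 3000 cells (input 5092 WT cells at 90% viability and 5125 Nuc1 cells at 95%). The submitters' processing notes name Cell Ranger 3.1.0, STAR 2.7 and Seurat 3.1.0 and 3.1.1. The genome build and annotation were not given in the sources used here. The authors removed low-quality cells and doublets in their own analysis with no cutoffs stated, and whether the deposited counts precede that step was not stated.

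Barcodes with fewer than 500 genes or more than 20% of UMIs from 13 mitochondrial genes were removed, which left out 139 WT and 136 Nuc1 barcodes. A cell joined a group when the summed markers reached 1000 CPM (3000 CPM for Gfap, Aqp4, Mlc1, Fabp7 and S100b, the astrocyte markers). Cells that met the astrocyte and motile-cilia rules and no other were kept as motile-cilia cells. Their group had median astrocyte marker levels of 6116 CPM in WT and 8975 CPM in Nuc1. Cells that met any other combination of rules (28 WT, 67 Nuc1) were set apart as mixed, and 8 and 31 cells met none. These levels were set after seeing the data, and 82 cells lay between 1500 and 6000 CPM of the astrocyte markers and 78 between 500 and 2000 CPM of the collagen-rich group's markers (Lum, Dcn, Col3a1 and Col1a1). Collagen-rich cells were called dividing at 800 CPM of 6 mitosis genes and were otherwise placed by marker pairs (Ccn3/Rspo3, Actg2/Penk, Cldn11/Thbd or Inmt/Cyp26b1). No doublet caller was run.

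Counts were summed per group and library and given as CPM with exact Poisson intervals, shares of cells with exact binomial (Clopper-Pearson) intervals and ratios with exact conditional intervals. Cells were thinned to 5000 UMIs to compare shares. A gene entered a comparison at 20 UMIs over the groups compared and was called at 2-fold with 0.5 UMIs added per library, and 3 UMIs were taken as the limit that a count of 0 allows. Genes of the lists were named at 100 UMIs or more, and the 3 genes most like a member from genes with at least 200 UMIs. The members and lists were chosen with earlier results of these data known. The ratios were tested on simulated Poisson counts with known fold changes. Those draws had no spread between cells, so they say nothing on sums held by few cells. Python 3.11.15, numpy 2.4.6, scipy 1.17.1, pandas 2.3.3 and matplotlib 3.10.9 were used, and R 4.3.3 with edgeR 4.0.16 for TMM factors alone. Alternatives were other filters, marker levels, scalings, thinning and left-out top cells.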

Additional observations from a re-analysis of the deposited data

Results flagged for a closer look

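The direction of the genotype difference was not the same in every cell group or subset for most of the chemokines. The 4 given here either had opposite signs in collagen-rich and astrocyte-like cells or had subsets whose counting intervals lay on opposite sides of 0. With 1 library per genotype these differences between groups were not tested. Cxcl10 had a log2 ratio (Nuc1 over WT) of 1.46 in collagen-rich and -0.80 in astrocyte-like cells, where it rested on 8 and 13 UMIs. Within collagen-rich cells it ran from 4.97 in the subset low in all pairs, where 1 Nuc1 cell held 205 UMIs, to -1.68 in the Inmt/Cyp26b1 subset, where 2 of 25 WT cells held all WT UMIs. For Ccl2 it was -4.91 in Ccn3/Rspo3 cells and 1.49 in Actg2/Penk cells, where 1 Nuc1 cell held 296 UMIs. For Ccl7 it was -1.73 in Ccn3/Rspo3 cells and 2.54 in the subset low in all pairs. For Cx3cl1 it was 1.42 in collagen-rich cells and -0.33 in astrocyte-like cells, where the interval included 0.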

How the results depend on the processing

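Of 103 alternative values of the Nuc1/WT ratios of members in collagen-rich cells, 80 lay within the interval of the value reported, and of 92 in astrocyte-like cells 69 did. The count of members at least 2-fold lower in Nuc1 collagen-rich cells was 0 as reported and 1, Ccl2, with marker levels doubled (log2 ratio -1.01), TMM factors (-1.03), the median of all genes at 0 (-1.02), thinning (-2.13), without the top cell (-1.51) or top 5 cells (-2.86), and with the mean of per-cell CPM (-2.14). It was 1, Cxcl1 (-1.06), with the subsets weighted equally, where Cxcl12 turned to -0.35, Ccl7 was 1.31 and Cx3cl1 0.27. The count of members at least 2-fold higher in Nuc1 astrocyte-like cells was 1 as reported, 3 at no more than 10% mitochondrial UMIs (Cxcl14 at 1.15, Ccl7 at 2.50 and Ccl5), 2 with mixed cells added (Cxcl10 at 2.28 and Ccl5), 2 with marker levels doubled (Cxcl10 at 3.02 and Ccl5) and 0 without the top cell. Cxcl12 there, 0.37 as reported, was -0.80 at no more than 10% mitochondrial UMIs, -0.04 when thinned and just past 2-fold without the top 5 cells, where it was the 1 member counted in place of Ccl5. At no more than 10% mitochondrial UMIs only 19 of the 102 WT astrocyte-like cells remained, so that setting compares few cells. The count of members at least 2-fold higher in astrocyte-like than collagen-rich cells in both libraries went from 2 to 1 at no more than 10% mitochondrial UMIs, with marker levels halved or doubled, and without the top 5 cells, which also took the count of lower members from 1 to 2. The cause was not tested where the setting leaves it unshown. Leaving out the top 5 cells and weighting subsets equally were chosen after seeing the data. No paired analysis was possible because there was only 1 library of each kind, and for the same reason no replicate could be left out. Depth limits Ccl5 in every group and Cxcl10 in astrocyte-like cells.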
